A study of Mus musculus with 6 samples.

Results

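The nucleosome remodeling and deacetylase (NuRD) complex was examined through 10 subunit genes, *Chd3*, *Chd4*, *Chd5*, *Hdac1*, *Hdac2*, *Mta1*, *Mta2*, *Mta3*, *Gatad2a* and *Mbd3*. They were taken by symbol from the 54532 genes of the raw count table, where each symbol has a single row, and all 10 were among the 19372 genes with enough counts for a test. RNA had been sequenced from single whole hearts of E9.5 mouse embryos, 3 *Smyd1-KO* and 3 wild type (WT). *Smyd1-KO* embryos are homozygous for a null allele of *Smyd1*, a lysine methyltransferase gene of cardiac and skeletal muscle, lost constitutively rather than in one cell type, and derive from a *Smyd1*+/− strain. The WT hearts carry no engineered allele, no heart was treated, and embryos of both sexes were used. The study asked which genes SMYD1 controls in the developing heart and how they relate to those of CHD4.

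NuRD couples an ATP-dependent nucleosome remodeler to histone deacetylation. A CHD ATPase slides nucleosomes, HDAC1 and HDAC2 remove acetyl groups from histone tails, MTA proteins form the scaffold that holds the deacetylases and the histone chaperones RBBP4 and RBBP7, and MBD2 or MBD3 together with GATAD2A or GATAD2B joins that scaffold to the remodeler. Most subunits are encoded by paralogs that replace each other in the complex. In the embryonic heart, CHD4 is needed to repress genes of skeletal and smooth muscle in cardiomyocytes.

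The hearts gave 48627825 to 64217529 counts each. Of these the 10 NuRD genes took 0.2225% to 0.2454% in *Smyd1-KO* and 0.2465% to 0.2598% in WT hearts, with *Chd4* as the largest part. *Smyd1*, the targeted gene, was measured at 101.4, 222.1 and 206.1 CPM (counts scaled by the TMM-normalized size of the library) across *Smyd1-KO* hearts 1, 2 and 3, against 414.4, 378.9 and 269.8 CPM across WT hearts 1, 2 and 3 (log2 fold change −1.01, adjusted *P*=0.0973 by edgeR). DESeq2 called it as lower (log2 fold change −1.001, adjusted *P*=0.00555). Reads remained on it in every *Smyd1-KO* heart. Every *Smyd1-KO* heart was below every WT heart. Markers of cardiomyocytes, endothelium and cycling cells, summed over each list, overlapped between the genotypes. The 10 cardiomyocyte markers summed to 6306 to 13500 CPM in *Smyd1-KO* and 8592 to 13810 CPM in WT hearts. The low value of 6306 CPM is that of *Smyd1-KO* heart 1, against 13480 and 13500 CPM in *Smyd1-KO* hearts 2 and 3. Among WT hearts the low value of 8592 CPM is that of heart 3, against 13810 and 13430 CPM in hearts 1 and 2. The sum of the 8 erythroid markers was lower in *Smyd1-KO* hearts (27.3 to 274 CPM against 721 to 945 CPM in WT). That of the 5 epicardial markers was higher (137 to 255 CPM against 100 to 124 CPM), and neither sum overlapped. By gene, *Upk3b* was the only epicardial marker without overlap, and *Epor* the only erythroid marker with overlap. The part of these cell types in the values of the NuRD genes was not tested. In RNA of whole hearts, fewer cells of a type and less RNA per cell cannot be told apart.

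None of the 10 NuRD genes (0 of 10) was called in edgeR's quasi-likelihood test, which required a *P* under 0.05 after adjustment over all genes and a log2 fold change beyond 0.5 in either direction. Of all genes tested, 4.28% passed, 2.86% as higher and 1.42% as lower in *Smyd1-KO* hearts. The lowest adjusted *P* among the 10 genes was 0.0935, for *Chd5*. An unadjusted *P* under 0.05 was found for 4 of the 10, *Chd5* and *Mta1* with higher and *Chd4* and *Mta2* with lower values in *Smyd1-KO* hearts, and for 25.1% of all tested genes. The genotypes did not overlap for 5 of the 10, these 4 and *Gatad2a*, against 31.3% of all tested genes. The median absolute log2 fold change was 0.15 over the NuRD genes and 0.25 over all tested genes. These medians were not matched for expression level. Apart from *Mta3* and *Chd5*, each NuRD gene had a higher CPM than at least 93.37% of all tested genes. With DESeq2, 1 of the 10 was called, again *Chd5*, where 8.93% of 19605 genes were called.

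A 95% interval was computed for each gene by itself, without adjustment over genes, so that together they cover less than 95%. Those of *Chd4* and *Mta1* reached past the limit of 0.5. For 9 of the 10 genes, all but *Chd5*, the 95% interval of the log2 fold change lay between −0.53 and 0.54, which corresponds to 0.692 to 1.459 times the WT level. These 9 genes rest on 2156 to 63279 counts per heart. Where the interval includes 0, as for 6 of the 10 genes, these hearts did not resolve a direction. The intervals of *Chd4*, *Chd5*, *Mta1* and *Mta2* leave out 0, but none of these genes passed adjustment over all genes by edgeR.

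**Figure D1:**
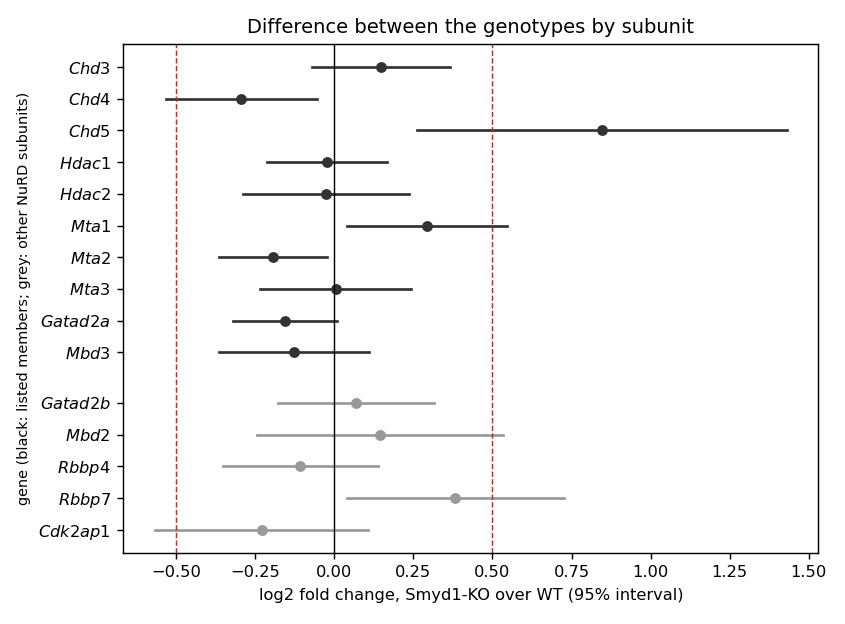
Log2 fold change of *Smyd1-KO* over WT hearts (horizontal axis) for the 10 NuRD genes (black) and 5 other subunits (grey), with 95% intervals from edgeR as bars and dashed lines at ±0.5. *Chd4* and *Mta2* lie below 0 and *Chd5* and *Mta1* above it with intervals that leave out 0, and only *Chd5* has its estimate beyond the dashed lines.

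The promoters of the 4 genes with an unadjusted *P* under 0.05 are shown because they include a pair of paralogs with log2 fold changes of opposite sign, *Mta1* and *Mta2*, beside *Chd4* and *Chd5*. Each window runs from 250 bases before to 50 bases after a RefSeq transcript start in GRCm38.p6, on the forward strand. They lie at chr6:125095731-125096030 for *Chd4*, chr4:152338401-152338700 for *Chd5*, chr12:113098028-113098327 for *Mta1* and chr19:8941670-8941969 for *Mta2*. Capitals mark the SP1 box GGGCGG, the CCAAT box and the hypoxia response core ACGTG, each searched on both strands, so that CCGCCC is an SP1 box on the reverse strand. For *Chd4* and *Chd5*, which have more than one listed start, the window of the upstream start is printed.
Chd4: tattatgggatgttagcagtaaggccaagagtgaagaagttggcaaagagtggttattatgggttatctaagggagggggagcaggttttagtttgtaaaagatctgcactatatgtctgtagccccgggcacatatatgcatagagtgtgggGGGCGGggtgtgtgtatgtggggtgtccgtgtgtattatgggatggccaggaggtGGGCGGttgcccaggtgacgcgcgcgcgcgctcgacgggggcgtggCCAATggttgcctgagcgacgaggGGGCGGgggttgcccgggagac
Chd5: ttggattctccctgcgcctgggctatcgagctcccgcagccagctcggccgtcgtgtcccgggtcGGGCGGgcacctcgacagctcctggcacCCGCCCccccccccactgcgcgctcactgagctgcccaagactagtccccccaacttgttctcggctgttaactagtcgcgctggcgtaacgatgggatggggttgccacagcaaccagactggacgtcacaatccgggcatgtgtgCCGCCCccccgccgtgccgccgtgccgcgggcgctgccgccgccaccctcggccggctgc
Mta1: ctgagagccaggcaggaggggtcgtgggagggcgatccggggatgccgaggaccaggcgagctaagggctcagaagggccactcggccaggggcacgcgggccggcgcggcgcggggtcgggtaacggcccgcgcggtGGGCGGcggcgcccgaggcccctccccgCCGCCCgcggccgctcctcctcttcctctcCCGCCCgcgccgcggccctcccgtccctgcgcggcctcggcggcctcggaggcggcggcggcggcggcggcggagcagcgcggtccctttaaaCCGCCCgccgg
Mta2: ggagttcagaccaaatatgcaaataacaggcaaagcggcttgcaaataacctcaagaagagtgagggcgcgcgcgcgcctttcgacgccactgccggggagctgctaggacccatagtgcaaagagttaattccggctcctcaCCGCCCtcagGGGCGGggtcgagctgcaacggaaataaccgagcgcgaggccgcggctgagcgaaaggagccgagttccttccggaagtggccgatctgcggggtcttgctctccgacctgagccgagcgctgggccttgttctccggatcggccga

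The SP1 box occurs 3 times in the *Chd4* window, 3 times in the *Chd5* window, 4 times in the *Mta1* window and 2 times in the *Mta2* window. It is found in 35.7% of all 32851 promoter windows. The CCAAT box, held by 37.4% of all windows, is present in the *Chd4* window alone among these 4. None of the 4 holds the hypoxia response core, which 19.6% of all windows hold. CpG dinucleotides number 17 for *Chd4*, 32 for *Chd5*, 50 for *Mta1* and 30 for *Mta2*, with a median of 7 over all windows. All 4 windows lie above that median. So do the windows of *Gatad2a*, *Hdac2* and *Mbd3*, which are not printed and each hold an SP1 box. The CCAAT box occurs 2 times in the window of the upstream *Gatad2a* start and 3 times in that of *Mbd3*. The same *Gatad2a* window holds the hypoxia response core 1 time. A motif match describes the letters of the window and is not a binding site.

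*Chd4* (ENSMUSG00000063870, chromosome 6, 125095981 to 125130591) encodes the main remodeling ATPase of NuRD in the heart. It was at 804.7, 741.9 and 719.0 CPM across *Smyd1-KO* hearts 1, 2 and 3, against 841.4, 996.7 and 939.1 CPM across WT hearts 1, 2 and 3. All *Smyd1-KO* hearts were below all WT hearts, although *Smyd1-KO* heart 1 and WT heart 1 lay close together. The log2 fold change was −0.29 (SE 0.101, 95% interval −0.53 to −0.06), and it did not pass adjustment over all genes (adjusted *P*=0.130 by edgeR).

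*Chd3* (ENSMUSG00000018474, chromosome 11, 69343273 to 69369406) encodes the paralogous ATPase that takes the place of CHD4 in some NuRD complexes. It was at 164.1, 154.7 and 188.4 CPM across *Smyd1-KO* hearts 1, 2 and 3, against 155.5, 154.2 and 148.2 CPM across WT hearts 1, 2 and 3. The genotypes overlapped, with *Smyd1-KO* heart 3 above the other 5 hearts. Between the genotypes the log2 fold change was 0.15 (95% interval −0.07 to 0.37, adjusted *P*=0.367 by edgeR), and 0.064 without *Smyd1-KO* heart 3.

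*Chd5* (ENSMUSG00000005045, chromosome 4, 152338651 to 152390194), the CHD paralog best known from neurons and from male germ cells, was close to the lower end of detection. It had 67, 96 and 118 counts in *Smyd1-KO* hearts 1, 2 and 3 and 50, 54 and 75 counts in WT hearts 1, 2 and 3. These correspond to 1.378, 1.624 and 2.067 CPM across *Smyd1-KO* hearts, against 0.8393, 0.8506 and 1.126 CPM across WT hearts. The genotypes did not overlap. The log2 fold change was 0.85 (SE 0.249, 95% interval 0.26 to 1.43), a ratio of 1.80. By edgeR it missed the threshold (adjusted *P*=0.0935), and by DESeq2 it passed at the same size (adjusted *P*=0.0444). With each heart left out in turn it was called by edgeR in 0 of 6 fits, at log2 fold changes of 0.678 to 1.001. The 8 neuronal markers, of which none was at 0 in any heart, summed to 14.4 to 30.4 CPM in *Smyd1-KO* and 16.7 to 19.9 CPM in WT hearts, with 4 of the 8 higher and 4 lower in *Smyd1-KO* hearts. Their part in the *Chd5* value was not tested. On the opposite strand, *Gm13645* shares 101 exonic bases with *Chd5*, and it had at most 1 count in any heart.

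*Hdac1* (ENSMUSG00000028800, chromosome 4, 129516104 to 129542713) and *Hdac2* (ENSMUSG00000019777, chromosome 10, 36974544 to 37001889) encode the catalytic deacetylases. *Hdac1* was at 229.7, 240.7 and 219.1 CPM across *Smyd1-KO* hearts 1, 2 and 3, against 241.2, 221.8 and 237.7 CPM across WT hearts 1, 2 and 3. *Hdac2* was at 224.8, 185.5 and 179.3 CPM across the *Smyd1-KO* hearts, against 210.2, 184.1 and 206.3 CPM across the WT hearts. Both genes overlapped between the genotypes. For *Hdac1* the log2 fold change was −0.02 (95% interval −0.21 to 0.17, adjusted *P*=0.885 by edgeR). That of *Hdac2* was −0.03 (95% interval −0.29 to 0.24, adjusted *P*=0.907 by edgeR).

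*Hdac1* shares the most sequence with other genes among the 10, so that its reads can be split or lost in counting. Of the 3586 stretches of 75 bases in its transcripts, 29.3% also occur in transcripts of other genes, and 1005 of them occur in the processed pseudogene *Gm10093*. *Gm10093* received 1428 to 3147 counts per heart, with a log2 fold change of −0.28 between the genotypes (adjusted *P*=0.461 by edgeR). Counting both together gave a log2 fold change of −0.06 (SE 0.079, adjusted *P*=0.673 by edgeR). Apart from *Chd5*, the other 8 genes shared no such stretch with another gene.

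*Mta1* (ENSMUSG00000021144, chromosome 12, 113098278 to 113137206) encodes the scaffold subunit with the highest level among its paralogs in these hearts. It was at 363.4, 298.1 and 286.3 CPM across *Smyd1-KO* hearts 1, 2 and 3, against 259.3, 255.4 and 259.2 CPM across WT hearts 1, 2 and 3. All *Smyd1-KO* hearts were above all WT hearts, and *Smyd1-KO* heart 1, with a cardiomyocyte marker sum of 6306 CPM, was the highest. WT heart 3, with the lowest such sum among WT hearts (8592 CPM), had *Mta1* at 259.2 CPM, within the range of the other WT hearts. A link between that sum and *Mta1* was not tested. For *Mta1* the WT hearts differed by a coefficient of variation of 0.854%, against 13.2% among *Smyd1-KO* hearts. Its log2 fold change was 0.29 (SE 0.108, 95% interval 0.04 to 0.54), which did not pass adjustment (adjusted *P*=0.149 by edgeR). Without *Smyd1-KO* heart 1 it was 0.18.

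*Mta2* (ENSMUSG00000071646, chromosome 19, 8941875 to 8952303), which encodes an alternative scaffold, was at 168.5, 161.8 and 156.4 CPM across *Smyd1-KO* hearts 1, 2 and 3, against 181.7, 184.8 and 190.2 CPM across WT hearts 1, 2 and 3. All *Smyd1-KO* hearts were below all WT hearts. edgeR gave a log2 fold change of −0.19 (SE 0.073, 95% interval −0.36 to −0.02), which did not pass adjustment (adjusted *P*=0.155 by edgeR). *Mta3* (ENSMUSG00000055817, chromosome 17, 83706163 to 83821516), the remaining MTA paralog, was at 44.34, 47.65 and 51.56 CPM across the *Smyd1-KO* hearts, against 53.16, 45.88 and 44.09 CPM across the WT hearts. These values overlapped, with a log2 fold change of 0.00 (95% interval −0.23 to 0.24, adjusted *P*=0.984 by edgeR).

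*Gatad2a* (ENSMUSG00000036180, chromosome 8, 69907076 to 69996384) encodes a subunit that bridges the remodeler and the deacetylase module. It was at 163.1, 167.7 and 160.3 CPM across *Smyd1-KO* hearts 1, 2 and 3, against 182.3, 185.5 and 179.4 CPM across WT hearts 1, 2 and 3. All *Smyd1-KO* hearts were below all WT hearts, and the hearts of a genotype lay close together. The log2 fold change was −0.16 (SE 0.070, 95% interval −0.32 to 0.01, adjusted *P*=0.217 by edgeR). *Mbd3* (ENSMUSG00000035478, chromosome 10, 80392539 to 80399550) encodes the methyl-CpG-binding domain subunit that, unlike MBD2, binds methylated DNA poorly. It was at 290.3, 309.4 and 311.7 CPM across the *Smyd1-KO* hearts, against 369.1, 328.0 and 298.4 CPM across the WT hearts, which overlapped. Its log2 fold change was −0.13 (95% interval −0.36 to 0.11, adjusted *P*=0.474 by edgeR), and −0.036 without WT heart 1, the highest.

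**Figure D2:**
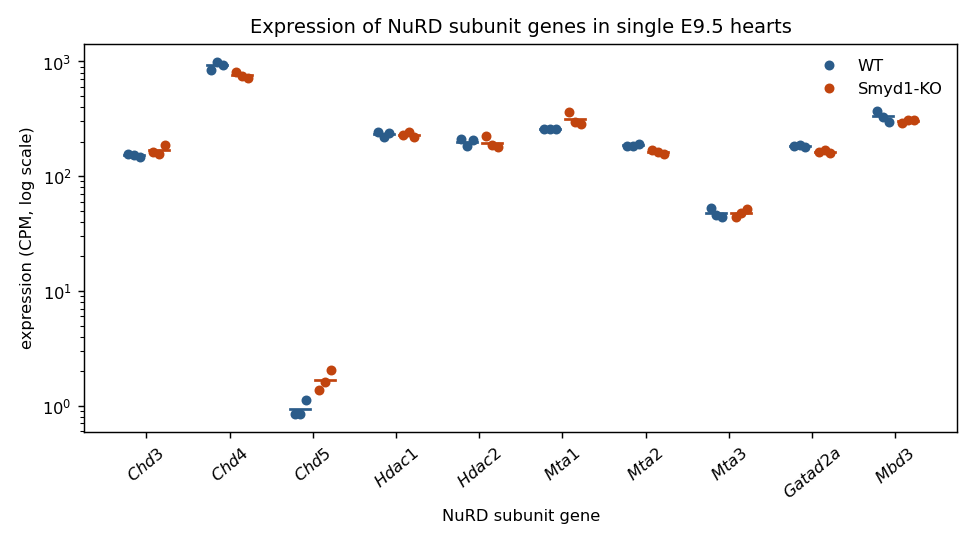
Expression of each NuRD gene in CPM (vertical log axis) in 3 WT (blue) and 3 *Smyd1-KO* hearts (orange). Points are single hearts, from left to right hearts 1 to 3, and lines are means. *Chd5* lies near 1 CPM and the other 9 genes between 44.09 and 996.7 CPM.

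Levels were compared between genes in RPKM, the CPM divided by the exonic length of the gene in kilobases. That length joins the exons of all annotated transcripts, whichever were expressed, and the order of the genes depends on it. By mean CPM in WT hearts, *Chd4* (925.8) was above *Mbd3* (331.8). In WT hearts *Mbd3* was the highest at 167 ± 17.9 RPKM (SD, n=3), followed by *Chd4* at 115 ± 9.79 RPKM and *Mta1* at 83.1 ± 0.71 RPKM. *Hdac1*, without the counts of *Gm10093*, followed at 67.8 ± 3.00 RPKM, *Mta2* at 45.3 ± 1.05 RPKM and *Hdac2* at 44.8 ± 3.15 RPKM. The order ended with *Gatad2a* at 32.6 ± 0.545 RPKM, *Chd3* at 18.1 ± 0.459 RPKM, *Mta3* at 8.97 ± 0.903 RPKM and *Chd5* at 0.0980 ± 0.0170 RPKM. Of neighbors in this order, only *Mta2* and *Hdac2* overlapped among the WT hearts.

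In *Smyd1-KO* hearts the order was nearly the same by mean. *Mbd3* was at 153 ± 5.89 RPKM (SD, n=3). *Mta1*, at 102 ± 13.4 RPKM, was next to *Chd4*, at 94.2 ± 5.53 RPKM, and these overlapped (92.2 to 117 RPKM against 89.7 to 100.3 RPKM). In WT hearts the same genes did not overlap, with *Chd4* higher (104.9 to 124.3 RPKM against 82.3 to 83.6 RPKM). *Hdac2*, at 43.9 ± 5.52 RPKM, and *Mta2*, at 39.6 ± 1.47 RPKM, overlapped in both genotypes.

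Because paralogs replace each other in NuRD, the share of each paralog in its family was computed within each heart from reads per kilobase, which does not depend on how libraries are scaled. With 3 hearts against 3, the smallest *P* of the exact permutation test is 0.1, so no share could pass 0.05. *Chd4* supplied 83.68%, 83.34% and 79.92% of the reads per kilobase of *Chd3*, *Chd4* and *Chd5* in *Smyd1-KO* hearts 1, 2 and 3, and 85.01%, 87.14% and 86.89% in WT hearts 1, 2 and 3. It was the main ATPase transcript in all 6 hearts. The mean share differed by −4.03 percentage points, *Smyd1-KO* minus WT (82.3% ± 2.08 against 86.3% ± 1.16, SD, n=3) and the genotypes did not overlap (exact permutation test, two-sided, *P*=0.1, adjusted *P*=0.167 over 5 shares). The ratio of *Chd4* to *Chd3* was 5.16, 5.05 and 4.02 in *Smyd1-KO* hearts and 5.70, 6.81 and 6.67 in WT hearts. Summed over the ATPases, the level was 114 ± 4.84 RPKM in *Smyd1-KO* and 134 ± 9.66 RPKM in WT hearts (SD, n=3), without overlap.

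The MTA family had the widest difference in shares. *Mta2* supplied 24.71%, 27.35% and 27.27% of the family in *Smyd1-KO* hearts 1, 2 and 3, and 32.19%, 33.19% and 33.61% in WT hearts 1, 2 and 3. Its mean share differed by −6.55 percentage points, *Smyd1-KO* minus WT (26.4% ± 1.504 against 33.0% ± 0.731, SD, n=3), without overlap (exact permutation test, two-sided, *P*=0.1, adjusted *P*=0.167). The complement was mostly *Mta1*, with 70.29%, 66.45% and 65.81% in *Smyd1-KO* and 60.57%, 60.47% and 60.39% in WT hearts. The ratio of *Mta1* to *Mta2* was accordingly 2.85, 2.43 and 2.41 in *Smyd1-KO* hearts and 1.88, 1.82 and 1.80 in WT hearts. *Mta3* held 5.004%, 6.20% and 6.92% in *Smyd1-KO* and 7.25%, 6.34% and 5.996% in WT hearts, which overlapped (exact permutation test, two-sided, *P*=0.5, adjusted *P*=0.625). The summed MTA level was 150 ± 14.2 RPKM in *Smyd1-KO* and 137 ± 1.17 RPKM in WT hearts (SD, n=3), without overlap. It was 166.6, 144.5 and 140.1 RPKM in *Smyd1-KO* hearts 1, 2 and 3, and 137.9, 136.1 and 138.2 RPKM in WT hearts. *Smyd1-KO* heart 1 was thus the highest, and *Smyd1-KO* heart 3 lay close to the WT hearts.

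The deacetylases and the GATAD2 pair showed smaller differences. *Hdac1* supplied 57.02%, 62.76% and 61.34% of *Hdac1* and *Hdac2* in *Smyd1-KO* hearts 1, 2 and 3, and 59.85%, 61.02% and 59.94% in WT hearts 1, 2 and 3. The genotypes overlapped, with a difference of 0.108 percentage points (exact permutation test, two-sided, *P*=1, adjusted *P*=1). Counts of *Gm10093* were not added to *Hdac1* for this share. *Gatad2a* supplied 82.42%, 82.79% and 82.69% of *Gatad2a* and *Gatad2b* in *Smyd1-KO* hearts and 86.78%, 83.99% and 83.57% in WT hearts. Its mean share differed by −2.15 percentage points without overlap (exact permutation test, two-sided, *P*=0.1, adjusted *P*=0.167), and WT heart 1 stood above the rest.

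**Figure D3:**
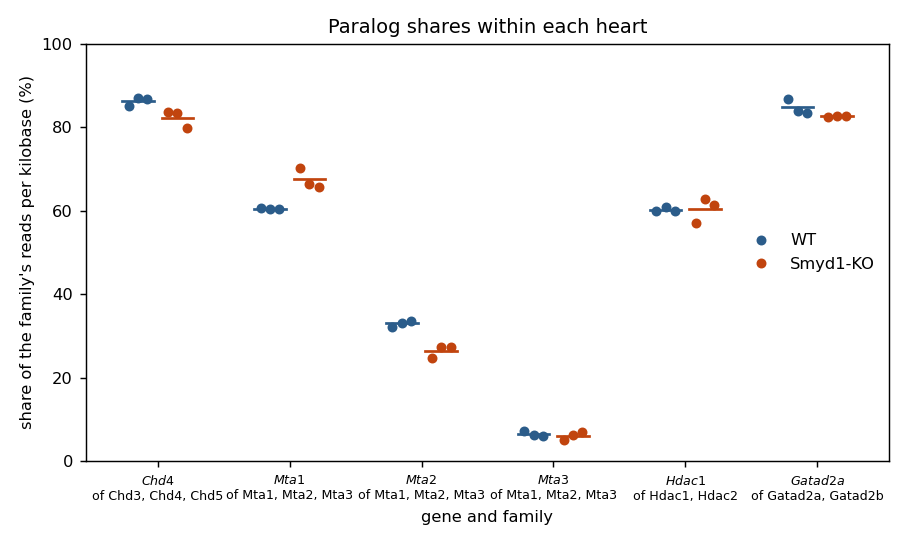
Share of a gene in the reads per kilobase of its paralog family (vertical axis, percent) in each WT (blue) and *Smyd1-KO* heart (orange), with lines at the means. The *Mta1* share is 65.81% to 70.29% in *Smyd1-KO* against 60.39% to 60.57% in WT hearts, the *Mta2* share lies lower in *Smyd1-KO* hearts, and the *Hdac1* shares overlap.

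The remaining subunits were measured next to these 10. *Rbbp7*, on chromosome X, and *Rbbp4* encode the histone chaperones of the complex. *Rbbp7* was at 540.8, 605.3 and 759.2 CPM across *Smyd1-KO* hearts 1, 2 and 3, against 544.4, 444.3 and 472.2 CPM across WT hearts 1, 2 and 3. *Smyd1-KO* heart 1 fell within the WT range, and the log2 fold change was 0.38 (SE 0.147, adjusted *P*=0.162 by edgeR). The log2 fold change was −0.11 for *Rbbp4*, 0.07 for *Gatad2b*, 0.14 for *Mbd2* and −0.23 for *Cdk2ap1*, a small subunit of the complex. Of these 5 genes 0 were called by edgeR or DESeq2, and 1 had an unadjusted *P* under 0.05 by edgeR. Over all genes these shares were 4.28% by edgeR, 8.93% by DESeq2 and 25.1% for the unadjusted *P*.

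Genes whose products recruit NuRD, share its deacetylases or belong to the same enzyme families were compared on the same scale. In 7 lists with 61 tested genes, the 5 subunits above among them, edgeR called 5 genes as higher and 2 as lower in *Smyd1-KO* hearts, where 2.86% and 1.42% of all tested genes were called in these directions. The median absolute log2 fold change over the 61 genes was 0.15. Among 12 recruiters and partners, *Nab2* and *Bcl6* rose and *Ikzf1* fell. *Nab2*, a corepressor of EGR factors that binds CHD4, was at 29.35, 36.18 and 44.27 CPM across *Smyd1-KO* hearts 1, 2 and 3, against 23.23, 19.85 and 18.09 CPM across WT hearts 1, 2 and 3 (log2 fold change 0.84, SE 0.169, adjusted *P*=0.0368 by edgeR). *Bcl6*, a zinc finger repressor that binds MTA3 in B cells, had 54, 83 and 85 counts in *Smyd1-KO* and 19, 32 and 40 counts in WT hearts (log2 fold change 1.49, SE 0.297, adjusted *P*=0.0367 by edgeR). *Ikzf1*, a hematopoietic factor that carries NuRD to its targets in lymphocytes, had a log2 fold change of −1.29 (adjusted *P*=0.0256 by edgeR), and the erythroid markers were lower in the same hearts.

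The other complexes built on HDAC1 and HDAC2 held 3 of the 7 calls. *Sap30*, a SIN3 complex subunit, was at 89.02, 80.68 and 79.01 CPM across *Smyd1-KO* hearts 1, 2 and 3, against 52.64, 53.18 and 54.06 CPM across WT hearts 1, 2 and 3, and it rose by a log2 fold change of 0.64 (SE 0.0741, adjusted *P*=0.00724 by edgeR). *Rcor2*, a CoREST scaffold, was at 275.2, 245.7 and 211.9 CPM across *Smyd1-KO* hearts, against 148.9, 169.4 and 173.5 CPM across WT hearts (log2 fold change 0.58, adjusted *P*=0.0391 by edgeR). *Hmg20b*, a CoREST complex subunit, was at 56.99, 57.07 and 58.81 CPM across *Smyd1-KO* hearts, against 92.67, 91.58 and 81.88 CPM across WT hearts, and had a log2 fold change of −0.62 (SE 0.0759, adjusted *P*=0.00861 by edgeR). Of all 19 genes in this list the remaining 16 were not called, although *Brms1* passed on its adjusted *P* of 0.0472 by edgeR at a log2 fold change of −0.38. Among 8 other deacetylases *Hdac11* rose (log2 fold change 0.65, adjusted *P*=0.0357 by edgeR).

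With each heart left out in turn, *Sap30* was called in 5 of 6 fits, lost without WT heart 2 (adjusted *P*=0.0598 by edgeR), and *Hmg20b* in 4, lost without *Smyd1-KO* heart 2 or WT heart 2 (adjusted *P* up to 0.0632 by edgeR). *Ikzf1* and *Hdac11* were called in 2 of 6 fits, and *Nab2*, *Bcl6* and *Rcor2* in 1. The fit without WT heart 2 called 0 of the 7 genes. The log2 fold changes kept their direction in these fits and lay between 0.585 and 0.673 for *Sap30*, −0.674 and −0.582 for *Hmg20b*, −1.43 and −1.19 for *Ikzf1*, 0.581 and 0.744 for *Hdac11*, 0.686 and 0.981 for *Nab2*, 1.28 and 1.69 for *Bcl6* and 0.482 and 0.669 for *Rcor2*.

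In 3 lists of 5, 6 and 6 genes edgeR and DESeq2 called 0, against 4.28% and 8.93% of all genes, and 3 of their genes had an unadjusted *P* under 0.05 by edgeR, against 25.1%. The list of 5 genes for the ChAHP complex of CHD4 holds subunits and paralogs of subunits. Its log2 fold changes ran from −0.20 for *Cbx1* to 0.32 for *Adnp*. In the NCoR/SMRT complex, the home of HDAC3, they ran from −0.09 for *Ncor1* to 0.33 for *Tbl1xr1*. Among 6 other CHD remodelers they ran from −0.12 for *Chd8* to 0.47 for *Chd2*. *Chd2* was at 144.7, 147.0 and 147.5 CPM across *Smyd1-KO* hearts 1, 2 and 3, against 95.31, 110.4 and 110.3 CPM across WT hearts 1, 2 and 3. It passed on its adjusted *P* (0.0254 by edgeR) and not on the limit of the fold change.

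**Figure D4:**
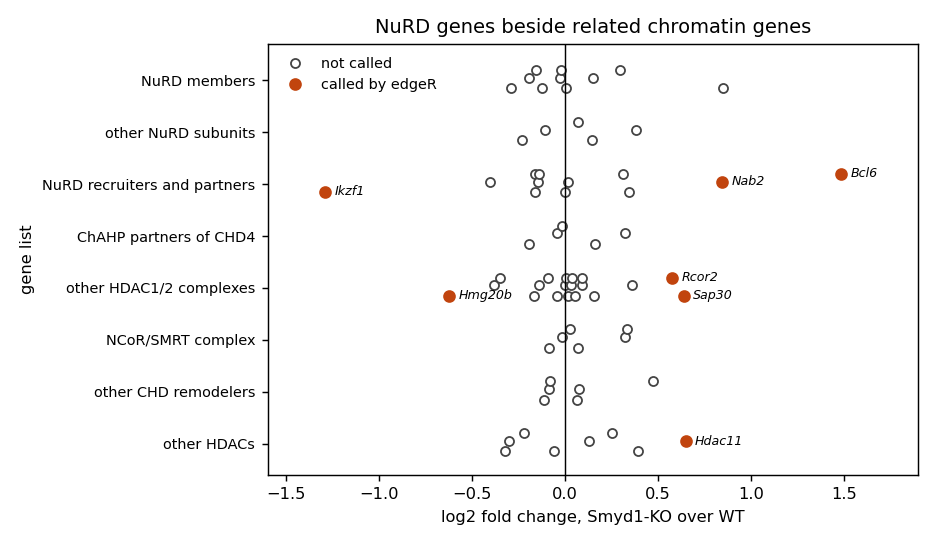
Log2 fold change of *Smyd1-KO* over WT hearts (horizontal axis) for the NuRD genes and 7 lists of related chromatin genes, with each point 1 gene, spread vertically for legibility. Filled points are the 7 genes called by edgeR, and none of them lies in the lists of NuRD subunits.

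Isoform genes of skeletal and smooth muscle, some of which are abundant in these WT hearts (*Acta2* at 2546, 2124 and 1402 CPM), were tested for 9 of 10 genes. By edgeR 0 were called, against 4.28% of all tested genes, and 1 was lower at an unadjusted *P* under 0.05, against 25.1% in either direction. Of the 9 genes DESeq2 called 1, *Myh11*. The log2 fold changes by edgeR ran from −0.93 for *Myh11* to 0.50 for *Acta1*. Among the erythroid markers, *Alas2*, which encodes the erythroid enzyme of the initial step of heme synthesis, fell in *Smyd1-KO* hearts (log2 fold change −2.19, adjusted *P*=0.0428 by edgeR). The extremes of the other lists were not called by edgeR, while DESeq2, which called 8.93% of all genes, called 1 of 10 cardiomyocyte, 2 of 8 endothelial, 2 of 5 epicardial, 5 of 8 erythroid, 0 of 8 neuronal and 0 of 8 cell cycle markers. By edgeR these extremes were −0.71 for *Myh6* and 1.44 for *Nppa* in cardiomyocytes, −0.83 for *Nfatc1* and 0.70 for *Kdr* in endothelium, 0.14 for *Tcf21* and 1.33 for *Upk3b* in epicardium, and −0.87 for *Dcx* and 1.57 for *Elavl3* in neurons. Cell cycle genes ran from −0.25 for *Mcm5* to 0.03 for *Aurkb*.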

How the data were processed

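RNA was sequenced from 3 *Smyd1-KO* and 3 WT E9.5 mouse hearts, 1 heart per library, with genotype and number as the sample labels give them. The authors selected poly A RNA, aligned paired-end reads to mm10 with STAR, and deposited raw counts per gene as whole numbers. The counting tool, annotation release and strand setting are not given in the sources used here. A further deposited table of counts divided by size factors was not used.

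The comparison used edgeR 4.0.16 in R 4.3.3 (filterByExpr, TMM, quasi-likelihood test, Benjamini-Hochberg adjustment over 19372 genes). A call required an adjusted *P* under 0.05 together with a log2 fold change beyond 0.5 in either direction. CPM use TMM factors, and 95% intervals are from the SE. Hearts are separate embryos. Total counts were 48627825 to 64217529 per heart, and the biological coefficient of variation was 22.5%. Positions and exonic lengths came from the GENCODE annotation of GRCm38, in which 54495 of 54532 identifiers were found. RefSeq promoter windows were matched for 7 of the 10 genes, and none for *Chd3*, *Hdac1* and *Mta3*. Tests were tried on simulated data. The figures were drawn in Python 3.11.15 with pandas 2.3.3 and matplotlib 3.10.9.

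The 10 genes and all gene lists were chosen with earlier results of these data known. Named are all 10 genes, the 5 other subunits, *Smyd1*, and from each other list the called genes, or else the highest and lowest log2 fold change. One called marker gene is not reported here. *Brms1*, *Chd2* and *Gm10093* were named after their values were seen. Alternatives were DESeq2 1.42.0, RLE and upper-quartile scaling, a floor of 10 counts in every heart or no filter at all, no mitochondrial or haemoglobin genes, no limit on the fold change, raw counts in place of reads per kilobase for the shares, the replicate number as a block and each heart left out. Counting *Hdac1* with *Gm10093* was added after seeing the data.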

Additional observations from a re-analysis of the deposited data

How the results depend on the processing

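Of 131 log2 fold changes of the 10 genes under alternatives that refit the model, 123 kept their direction. The 8 that turned belong to *Hdac1* (0.0113 without *Smyd1-KO* heart 3 and 0.00843 without WT heart 1), *Hdac2* (0.0151, 0.0367 and 0.0177 without *Smyd1-KO* heart 2, *Smyd1-KO* heart 3 and WT heart 1) and *Mta3* (−0.0511, −0.0236 and −0.0470 without *Smyd1-KO* heart 3, WT heart 2 and WT heart 3), whose ranges over the hearts left out were −0.0600 to 0.0113, −0.133 to 0.0367 and −0.0511 to 0.0970. No heart left out gave a call among the 10 genes (0 to 0). DESeq2 called 1 of them and 1751 genes in all, against 830 by edgeR, and its log2 fold change of *Chd5* was 0.85 (adjusted *P*=0.0444).

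The data gave no sign that replicate numbers pair the hearts (correlations of same-numbered deviations −0.231, −0.0387 and −0.208). Between differently numbered hearts these correlations ran from −0.169 to 0.314. With 3 hearts per genotype they cannot exclude a pairing. With the replicate block, 0 of the 10 genes, 59 genes in all and 0 of the 61 related genes were called, against 7 of these without it. With each heart left out, 97 to 1256 genes were called in all and 0 to 7 of the related genes. The lowest counts, 97 and 0, came without WT heart 2, and the highest total without *Smyd1-KO* heart 1.

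With each heart left out, the difference in share, in percentage points, lay between −4.71 and −2.83 for *Chd4*, −7.00 and −5.68 for *Mta2*, −2.75 and −1.15 for *Gatad2a*, −0.925 and 0.0312 for *Mta3* and −1.09 and 1.79 for *Hdac1*, so that the last 2 turned direction. The *Hdac1* values that turned were −1.09, −0.377, −0.102 and −0.0571. Raw counts in place of reads per kilobase gave −3.24 for *Gatad2a*, against −2.15, and turned none of the 5 shares.

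Precision is limited by 3 hearts per genotype, and for *Chd5* by 50 to 118 counts per heart.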
